A study of Homo sapiens with 18 samples.

Results

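The transcripts described here are those named for the nuclear subunits of the mitochondrial respiratory chain and of ATP synthase. They were taken from the array's gene annotation by name: every transcript cluster whose symbols all belong to complex I (NDUFA, NDUFB, NDUFC, NDUFS and NDUFV), complex II (SDH), complex III (UQCR and CYC1), complex IV (COX5 to COX8) or ATP synthase (ATP5F1, ATP5M and ATP5P). This gave 84 clusters of 77 genes among 21214 clusters with a gene symbol and 33297 in all. Complex I supplied 36 clusters of 33 genes, complex II 5 clusters of 3 genes, complex III 9 clusters of 9 genes, complex IV 15 clusters of 14 genes and ATP synthase 19 clusters of 18 genes. The name pattern does not match the symbols of the COX4 genes, so no COX4 gene is among the members. It does match UQCRBP1 and ATP5F1EP2, which carry pseudogene symbols and are counted with complex III and ATP synthase. ATP5F1E itself shares its cluster with another symbol and is no member.

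Expression was measured in HEK293, an established human embryonic kidney cell line. The cells were transiently transfected with an expression vector for the homeodomain protein RHOXF1, with one for RHOXF2, or with an empty control vector, and RNA was taken after 48 h or 24 h. The 6 groups were thus RHOXF1, RHOXF2 and control cells at 48 h, and RHOXF1, RHOXF2 and control cells at 24 h, with 3 arrays each (biological triplicates per the series text). The RHOX plasmids carry the wild-type proteins, the control plasmid is named as pCMV6-AC-GFP, and GFP in the RHOX plasmids is neither stated nor denied in the sources used here. All groups share the lipid transfection reagent and the serum-free transfection medium, with no untransfected group and no stated share of cells that took up a plasmid. Values are log2 levels on Affymetrix Human Gene 1.0 ST arrays, as deposited. The 24 h arrays carry the numbers 1 to 9 and the 48 h arrays 16 to 24, so an effect of time and one of the array run cannot be told apart, whereas the vectors alternate within each time.

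As background, complexes I to IV of the inner mitochondrial membrane pass electrons from NADH and succinate to oxygen. Complexes I, III and IV pump protons across that membrane on the way. ATP synthase uses the returning protons to make ATP. Every complex except complex II also needs subunits made from mitochondrial DNA, and none of the 13 such genes had a named cluster here. The nuclear subunit genes are transcribed in nearly all cell types.

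The transfected genes were checked first. RHOXF1 stood 70.7-fold above control in RHOXF1 cells at 48 h and 60.2-fold at 24 h, and the cluster shared by RHOXF2 and RHOXF2B stood 78.6-fold above control in RHOXF2 cells at 48 h and 64.6-fold at 24 h. RHOXF1 also rose in RHOXF2 cells at 48 h, to 3.58-fold above control (limma adjusted p = 0.0462; 2.40-fold and 0.0998 without RHOXF2 replicate 3), and read 2.21-fold above control at 24 h (adjusted p = 0.449), with all 3 arrays above control at each time. It read 7.75, 7.03 and 9.12 in RHOXF2 cells at 48 h, against 5.67, 6.20 and 6.51 in control cells. The neurofilament genes NEFL and NEFM, known in HEK293, lay at percentiles 99.5 and 99.6 of all named clusters, while the kidney genes PAX2 and LHX1 lay at 36.6 and 50.04. One array stood apart: on the first principal component (34.1% of the variance) RHOXF2 replicate 3 at 48 h lay at -4.48, against 9.36 to 26.2 for the other 48 h arrays and -17.2 to -8.71 for the 24 h arrays. It is also the RHOXF2 array with the highest RHOXF1 level, and the counts and the main named values that rest on it are given without it as well (for the counts, a choice made after seeing the data; 2 arrays lie apart from 3 more easily than 3 do). In whole cultures, fewer cells making a transcript and less of it per cell cannot be told apart.

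The subunit clusters were mostly bright. Of the 84 clusters, 55 lay in the brightest of 5 equal classes of named clusters, 13 in the next, and 8, 4 and 4 in the dimmer classes. Readings of different clusters depend on their probes and do not order the transcripts. The highest reading of complex I was that of NDUFB8, an accessory subunit of the membrane arm (mean log2 level 11.58 over 18 arrays), and the lowest that of the dimmer of the 2 NDUFS4 clusters (4.73), whose brighter cluster read 8.36. In complex II they were SDHC (12.03), a membrane anchor, and the dimmer SDHD cluster (8.95). Complex III ran between UQCRC2 (11.28), a core protein, and UQCRBP1 (6.17), annotated as a pseudogene of the ubiquinone-binding subunit UQCRB. ATP synthase ran between ATP5MC1 (12.88) and ATP5MC3 (6.45), which encode the same mature proton-carrying c subunit.

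Complex IV has forms that other tissues use in place of the common ones, and these 5 lay between percentiles 4.99 and 48.1 of named clusters. The lowest reading of complex IV was that of COX7B2 (3.95, percentile 4.99), a testis form, and the highest that of COX6A1 (12.46, percentile 99.2), the common form of subunit 6A. COX6B2 and COX8C, also known from testis, had 5.10 and 5.45 as their highest values on any array. The heart and muscle forms COX6A2 and COX7A1 stayed at or below 7.59 and 6.14, at percentiles 48.1 and 27.8. Markers of striated muscle lay between percentiles 9.56 and 56.5 (ACTA1 the highest) over the 6 measured, and those of germ cells between 11.8 and 41.1 over 6.

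**Figure D1:**
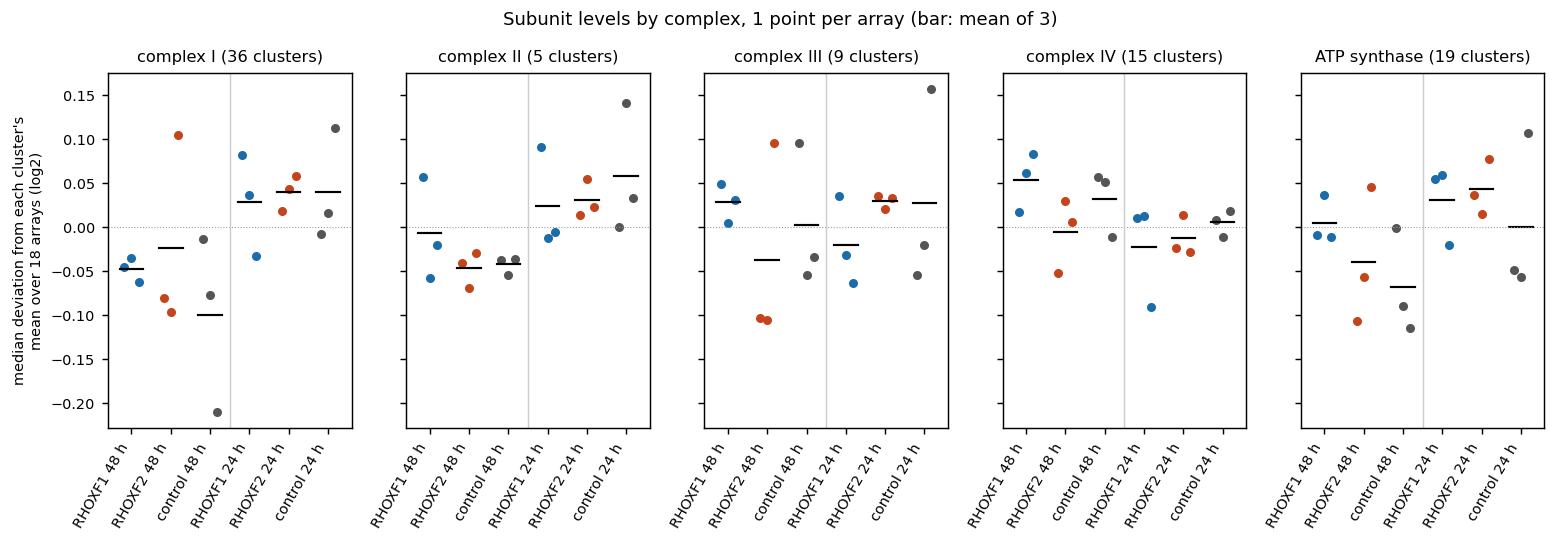
Median deviation of the clusters of each complex from their own means over 18 arrays (log2, y axis), with 1 point per array in the 6 groups on the x axis and a bar for the mean of 3 arrays. Complex I medians ran from -0.21 to 0.11, with control replicate 3 at 48 h the lowest array, and RHOXF2 replicate 3 at 48 h (0.10) above the other 48 h arrays.

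RHOXF1 and RHOXF2 were set against the empty vector to ask which transcripts answer to either protein, and none of the 84 subunit clusters changed past the threshold (limma, adjusted p under 0.05, two-sided, adjusted over 21214 clusters). At 48 h with RHOXF1 the called share of all clusters was 0.00943%, and with RHOXF2 0.0943%. At 24 h it was 0.00471% with RHOXF1 and 0.00943% with RHOXF2. The subunits' median log2 difference was 0.048 with RHOXF1 at 48 h (all clusters 0.0080), 0.029 with RHOXF2 at 48 h (0.013), 0.0032 with RHOXF1 at 24 h (0.00040) and 0.020 with RHOXF2 at 24 h (-0.0032). The RHOXF2 median at 48 h was -0.029 without RHOXF2 replicate 3 and -0.022 without control replicate 3, and the RHOXF1 median at 48 h was 0.0054 without control replicate 3. At 24 h, without control replicate 3, the medians were 0.058 with RHOXF1 and 0.067 with RHOXF2, and the RHOXF2 median was -0.024 without control replicate 1.

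The precision of 3 arrays bounds what could have been missed. The 95% interval of the difference from control lay within 1.5-fold in both directions for 78 of 84 clusters with RHOXF1 at 48 h, 76 with RHOXF2 at 48 h, 80 with RHOXF1 at 24 h and 76 with RHOXF2 at 24 h. By complex, the widest intervals were in complex IV, where 11 of 15 clusters met that bound with RHOXF2 at either time.

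**Figure D2:**
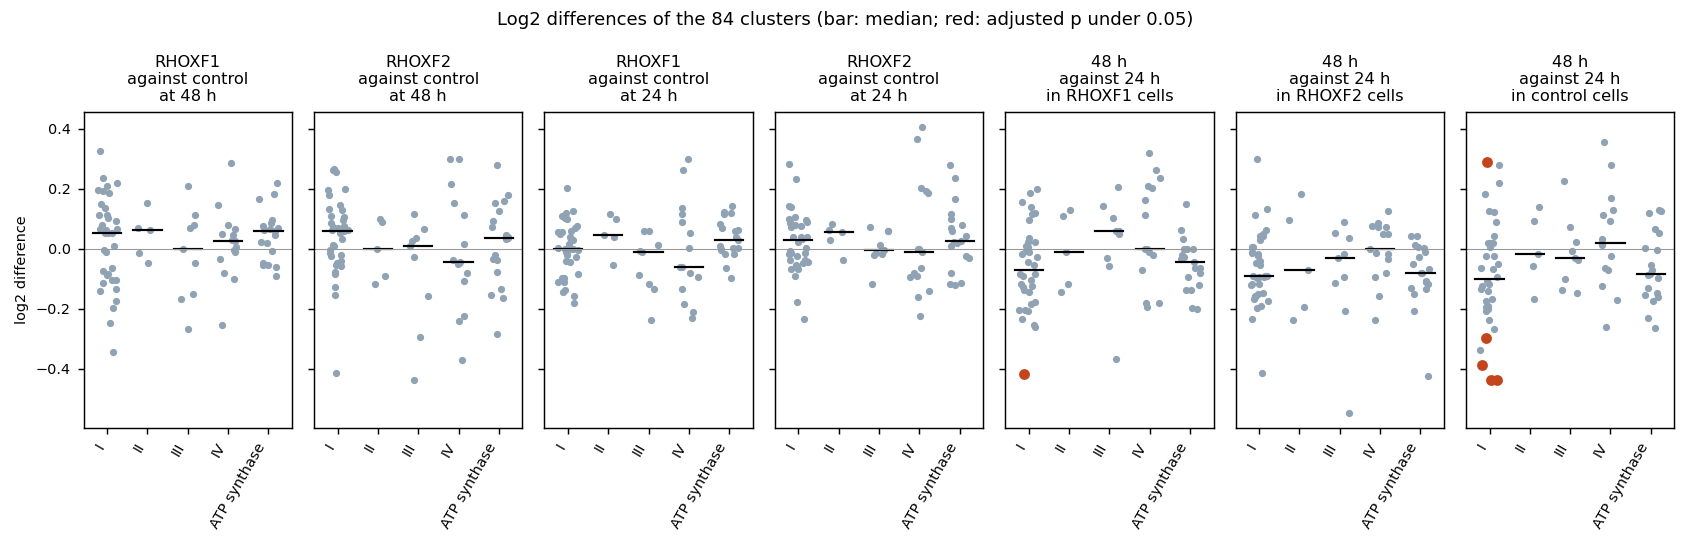
Log2 differences (y axis) of the 84 subunit clusters, grouped by complex on the x axis, in the 4 comparisons with control and in 48 h against 24 h of each vector. Bars are medians, and red points passed an adjusted p of 0.05: 0 in each comparison with control, 1 in RHOXF1 cells, 0 in RHOXF2 cells and 5 in control cells over time, all in complex I.

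At an unadjusted p under 0.05, RHOXF1 at 48 h had 5 subunit clusters higher and 2 lower than control (8.33% of members, against 7.22% of all clusters, 4.1% higher and 3.12% lower). The smallest p belonged to ATP5MJ, a small membrane subunit of ATP synthase. ATP5MJ read 10.54, 10.53 and 10.56 in RHOXF1 cells and 10.38, 10.27 and 10.33 in control cells at 48 h. The groups did not overlap, and the difference of 0.22 ± 0.08 (SE) had an adjusted p of 0.586 by limma. In RHOXF2 cells at 48 h ATP5MJ read 10.56, 10.44 and 10.52, again above all 3 control arrays (0.18, limma adjusted p = 0.359; 0.18 without replicate 3).

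Complex I gave both signs at 48 h. NDUFB7, an accessory subunit with paired disulfides, read 9.10, 9.30 and 9.14 in RHOXF1 cells, 8.98, 9.09 and 9.28 in RHOXF2 cells and 8.99, 8.92 and 8.65 in control cells. Its differences from control were 0.33 with RHOXF1 (limma adjusted p = 0.586) and 0.26 with RHOXF2 (adjusted p = 0.375; 0.18 without replicate 3). NDUFB8 read 0.22 above control with RHOXF1 (adjusted p = 0.634), without overlap. NDUFS4, an accessory subunit of the matrix arm, read 8.31, 8.27 and 8.19 in its brighter cluster in RHOXF1 cells at 48 h, below the 8.57, 8.38 and 8.56 of control cells.

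The NDUFS4 difference was -0.25 in that cluster (adjusted p = 0.654) and -0.34 in the dimmer one (adjusted p = 0.619). With RHOXF2 at 48 h the dimmer NDUFS4 cluster had the smallest p of all members (-0.41 ± 0.13, adjusted p = 0.241; -0.34 without RHOXF2 replicate 3), but the brighter one differed by -0.09, with overlapping arrays. The dimmer cluster lies at percentile 13.1 of named clusters. NDUFA8, which sits on the intermembrane face of complex I, read 0.25 above control with RHOXF2 at 48 h (adjusted p = 0.353); without RHOXF2 replicate 3 this was 0.12.

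Of the clusters whose 3 RHOXF1 arrays at 48 h all lay on 1 side of control, 8 were higher and 3 lower, against 7.17% and 5.39% of all clusters, which on 84 is 9.52% and 3.57%. With RHOXF2 at 48 h 2 were higher and 11 lower, or 2.38% and 13.1% of members, against 6.59% and 5.24% of all clusters. The 11 comprised 1 cluster of NDUFS4, 1 of SDHD, UQCRB, UQCRBP1, UQCRH, COX6B2, both clusters of COX6A1, COX6C, ATP5MGL and 1 of ATP5MK. At an unadjusted p under 0.05, 4 were higher and 7 lower with RHOXF2 at 48 h (13.1% of members, against 12.2% of all clusters, 6.41% higher and 5.75% lower). Without RHOXF2 replicate 3, 2 lay wholly above and 16 wholly below control (all clusters 8.9% and 7.72%), and 0 were higher and 6 lower at an unadjusted p under 0.05 (2.5% and 2.48%).

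UQCRB, the ubiquinone-binding subunit of complex III, had the largest difference of these 11. It read 6.72, 6.74 and 7.13 in RHOXF2 cells at 48 h and 7.18, 7.20 and 7.53 in control cells, a difference of -0.44 ± 0.17 (limma adjusted p = 0.304; -0.57 without RHOXF2 replicate 3). In RHOXF1 cells at 48 h UQCRB also lay below every control array, at 7.00, 7.13 and 6.98 (-0.27, adjusted p = 0.760). Its pseudogene UQCRBP1 read -0.29 with RHOXF2 (adjusted p = 0.340; -0.30 without replicate 3), and whether the 2 clusters share transcripts cannot be read from these files.

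In complex IV, COX8C, the testis form of subunit 8, read 4.86, 5.02 and 4.73 in RHOXF2 cells at 48 h and 4.87, 5.45 and 5.41 in control cells. The ranges overlapped through control replicate 1, and the difference was -0.37 ± 0.14 (limma adjusted p = 0.283; -0.30 without RHOXF2 replicate 3). Without control replicate 1 it was -0.56 with an adjusted p of 0.0412, the 1 case in which a subunit passed the threshold against control. COX6B2 read -0.22 (adjusted p = 0.325) and COX6C, a common small subunit, -0.24 (adjusted p = 0.359); without RHOXF2 replicate 3 they read -0.26 and -0.21. In ATP synthase, ATP5MGL, a relative of the g subunit, read -0.28 (adjusted p = 0.362; -0.34 without RHOXF2 replicate 3), and ATP5PF, a peripheral stalk subunit, 0.28 (adjusted p = 0.385; 0.15 without RHOXF2 replicate 3).

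At 24 h few subunits stood apart from control. With RHOXF1, 3 clusters had an unadjusted p under 0.05 (3.57% of members, against 4.76% of all clusters), and 0 had arrays wholly outside the control range, against 4.6% of all clusters on the higher and 4.93% on the lower side. With RHOXF2, 3 clusters again had an unadjusted p under 0.05 (3.57%, against 7.99%), and 2 were wholly above and 3 wholly below control, against 3.89% and 7.18% of all clusters. All 5 belong to complex IV: COX7B and COX7C above, COX6A2 and both COX6A1 clusters below.

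COX7B, a small membrane subunit of complex IV, led at 24 h. It read 9.03, 8.78 and 8.80 in RHOXF2 cells, 8.84, 8.84 and 8.62 in RHOXF1 cells and 8.44, 8.34 and 8.72 in control cells. The RHOXF2 arrays all lay above the control arrays (0.37 ± 0.12, limma adjusted p = 0.462), and the RHOXF1 arrays overlapped them (0.26, adjusted p = 0.961). COX7B also read higher in RHOXF1 cells at 48 h (0.29, adjusted p = 0.654). COX7C, another small subunit, read 0.19 above control with RHOXF2 at 24 h (adjusted p = 0.604).

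The muscle form COX6A2 had the same difference at 24 h with both vectors. Its levels were 7.18, 7.46 and 7.24 in RHOXF1 cells, 7.31, 7.39 and 7.20 in RHOXF2 cells and 7.59, 7.55 and 7.44 in control cells, with differences of -0.23 for each vector (limma adjusted p = 0.961 with RHOXF1 and 0.547 with RHOXF2). All 3 RHOXF2 arrays lay below the control arrays, and 1 RHOXF1 array overlapped them. These 2 comparisons share their control arrays. The common form COX6A1 differed by -0.21 with RHOXF1 at 24 h (adjusted p = 0.961), through replicate 3 at 11.99 beside 12.47 and 12.42 in the other RHOXF1 arrays.

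RHOXF1 set directly against RHOXF2 called 0 subunit clusters at 48 h (0.0519% of all clusters called) and 0 at 24 h (0.0141%). At 48 h, 3 subunits had an unadjusted p under 0.05, all higher with RHOXF1 (3.57%, against 1.55% of all clusters higher and 3.52% in either direction), and at 24 h 0 did (1.7%). The 3 were ATP5MGL (0.28), COX7A2 (0.25), the common form of subunit 7A, and COX6B2 (0.22), each with a limma adjusted p of 0.998; without RHOXF2 replicate 3 they were 0.33, 0.25 and 0.26. COX7A2 read 10.74, 10.74 and 10.69 in RHOXF1 cells and 10.57, 10.38 and 10.47 in RHOXF2 cells at 48 h, without overlap. In all, 7 subunit clusters lay wholly above and 3 wholly below RHOXF2 at 48 h, against 4.78% and 4.46% of all clusters, and at 24 h 1 above (COX8C) and 0 below, against 3.84% and 2.36%. Without RHOXF2 replicate 3 at 48 h, 23 lay above and 3 below (all clusters 10% and 7.63%), and 4 were higher at an unadjusted p under 0.05 (1.28%).

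In the reported model only 48 h against 24 h, where time and array run cannot be told apart, gave subunits past the threshold. In control cells 5 of 84 clusters changed between 24 h and 48 h, 4 lower and 1 higher (5.95% of members, against 17.8% of all clusters and 21.7% of the brightest of the 5 classes; by direction, 7.89% of all clusters were called lower and 9.89% higher). All 5 belong to complex I, where they are 13.9% of 36 clusters; complexes II, III and IV and ATP synthase had 0 of 48 called. This did not hold under 2 other normalizations: 7 subunits were called in control cells after cyclic loess, and 7 after quantile normalization was repeated, among them in both cases COX8C and COX6A2 of complex IV. Nor did it hold with the replicate block (COX6A2 called) or array weights (COX8C). Leaving out control replicate 1 of 24 h added COX8C and ATP5MG of ATP synthase (limma adjusted p = 0.0470). Without replicate 3 of 24 h COX6A2 was called, and without replicate 1 of 48 h COX8C and COX6C (0.0443). In RHOXF1 cells 1 subunit was called, NDUFA5 (1.19%, against 4.42% of all clusters), and in RHOXF2 cells 0 (against 1.24%). At an unadjusted p under 0.05, RHOXF1 cells had 11 subunits (13.1%, against 20.2% of all clusters) and control cells 13 (15.5%, against 33.5%), and RHOXF2 cells had 1 higher and 8 lower (10.7%, against 16.7% of all clusters, 10.3% higher and 6.36% lower). Clusters whose 48 h arrays lay wholly above or below the 24 h arrays numbered 5 and 8 in RHOXF1 cells (all clusters 15.1% and 14.7%), 2 and 11 in RHOXF2 cells (12% and 8.11%) and 4 and 12 in control cells (14.7% and 15.7%). Without RHOXF2 replicate 3 at 48 h, RHOXF2 cells had 2 above and 32 below (19.4% and 18%), and 0 higher and 13 lower at an unadjusted p under 0.05 (10.4% and 8.66%). That the subunits differ from other clusters in this share was not tested.

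NDUFA8 and NDUFA9 fell most clearly in control cells. NDUFA8 read 9.25, 9.03 and 9.07 at 48 h and 9.43, 9.49 and 9.75 at 24 h, a fall of 0.44 ± 0.11 without overlap (limma adjusted p = 0.0110). NDUFA9, a nucleotide-binding accessory subunit at the junction of the 2 arms, read 10.50, 10.48 and 10.38 at 48 h and 10.75, 10.84 and 10.94 at 24 h. Its fall of 0.39 ± 0.10 had an adjusted p of 0.0112, and NDUFA9 alone of the 5 stayed called when any 1 of the 6 control arrays was left out.

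NDUFS3, a core subunit of the matrix arm, read 10.30, 10.14 and 9.96 in control cells at 48 h and 10.41, 10.37 and 10.51 at 24 h (-0.30 ± 0.09, limma adjusted p = 0.0247). NDUFB2, an accessory subunit of the membrane arm, read 7.78, 7.60 and 7.58 at 48 h and 7.81, 8.20 and 8.26 at 24 h (-0.44 ± 0.13, adjusted p = 0.0269). The 2 groups of NDUFB2 are only just apart, since 24 h replicate 1 lies beside the 48 h arrays. NDUFV1, the core subunit that binds NADH and FMN, was the 1 that rose: it read 10.93, 10.68 and 10.65 at 48 h and 10.47, 10.36 and 10.56 at 24 h (0.29 ± 0.10, adjusted p = 0.0439).

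Single arrays decided several of these calls in control cells. Left out one at a time, the 24 h control arrays ended the call of NDUFA8 (without replicate 3, adjusted p = 0.0508), NDUFS3 (replicate 3, 0.0761), NDUFB2 (replicate 2, 0.0988; replicate 3, 0.0957) and NDUFV1 (replicate 1, 0.0812; replicate 2, 0.159). The 48 h control arrays ended that of NDUFS3 (replicate 2, 0.0578; replicate 3, 0.126), NDUFB2 (replicate 2, 0.0769; replicate 3, 0.0887) and NDUFV1 (replicate 1, 0.162; replicate 2, 0.0583). With only the control arrays fitted, NDUFS3 (adjusted p = 0.121), NDUFB2 (0.0642) and NDUFV1 (0.134) were not called, nor was NDUFV1 with array weights (0.0559). The number of called subunits ran from 2 to 8 over these omissions. It was 8 without control replicate 1 at 48 h, 3 without replicate 3 of that time, 3 without replicate 2 or 3 of 24 h, and 2 without replicate 2 of 48 h.

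**Figure D3:**
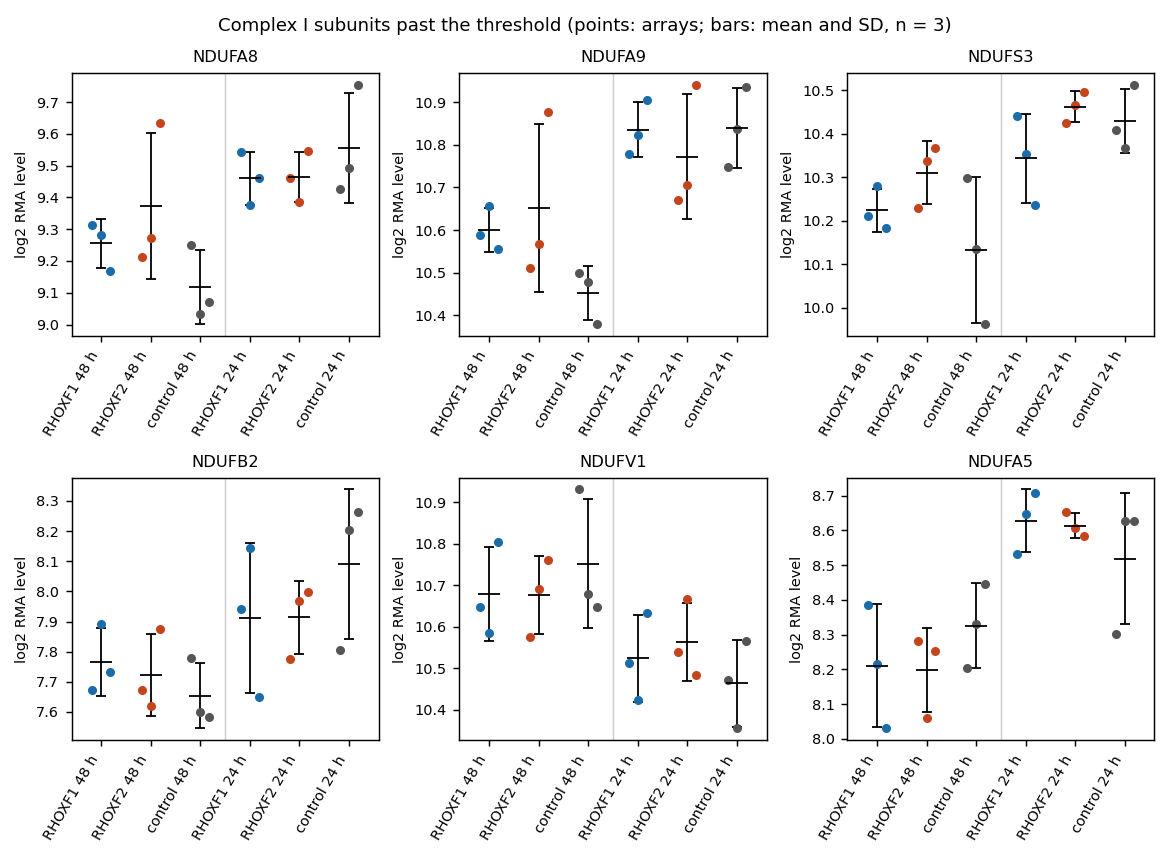
Log2 levels (y axis) of the 6 complex I subunits that passed the threshold over time, with 1 point per array, and the mean and SD of 3 arrays as bars, in the 6 groups on the x axis. NDUFA8, NDUFA9, NDUFS3 and NDUFB2 are lower in control cells at 48 h than at 24 h, NDUFV1 is higher, and NDUFA5 is lower in RHOXF1 cells at 48 h (8.03 to 8.38) than at 24 h (8.53 to 8.71).

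In RHOXF1 and RHOXF2 cells these subunits did not pass over time. NDUFA8 differed by -0.21 in RHOXF1 cells (limma adjusted p = 0.305) and -0.09 in RHOXF2 cells (0.738), and NDUFA9 by -0.24 (0.171) and -0.12 (0.583) in these cells. The test of the difference itself did not pass: for NDUFA8 the RHOXF2 effect at 48 h exceeded that at 24 h by 0.35 (adjusted p = 0.560; 0.22 without RHOXF2 replicate 3 at 48 h), and the RHOXF1 effect by 0.23 (adjusted p = 0.950). No member passed that test with RHOXF1 (0% of all clusters called) or RHOXF2 (0.0141%), and 3 subunits had an unadjusted p under 0.05 with each (3.57%, against 4.7% and 8.75% of all clusters).

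NDUFA5, an accessory subunit of the matrix arm, read 8.38, 8.22 and 8.03 in RHOXF1 cells at 48 h and 8.53, 8.65 and 8.71 at 24 h. Its fall of 0.42 ± 0.11 (limma adjusted p = 0.0328) was not called without RHOXF1 replicate 2 (0.105) or 3 (0.142) of 24 h, or without replicate 2 (0.0676) or 3 (0.169) of 48 h; the count in RHOXF1 cells was then 0. In RHOXF2 cells NDUFA5 read 8.28, 8.06 and 8.25 at 48 h and 8.65, 8.61 and 8.58 at 24 h (-0.41, adjusted p = 0.0547), and without RHOXF2 replicate 3 at 48 h it was called (-0.44, adjusted p = 0.0488). In control cells the difference was -0.19 (adjusted p = 0.209), with overlapping arrays. That NDUFA5 differed between the vectors in its time course was not shown (difference of -0.23 for RHOXF1, adjusted p = 0.950).

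UQCRB and ATP5MGL had larger differences than NDUFA5 in RHOXF2 cells, with larger adjusted p. UQCRB read 6.72, 6.74 and 7.13 at 48 h and 7.21, 7.50 and 7.54 at 24 h (-0.55 ± 0.17, limma adjusted p = 0.101); without RHOXF2 replicate 3 at 48 h it was called (-0.68, adjusted p = 0.0407), which brought the count in RHOXF2 cells to 2. In control cells UQCRB differed by -0.04. ATP5MGL differed by -0.42 in RHOXF2 cells (adjusted p = 0.0882; -0.48 without replicate 3 at 48 h). SDHD, a membrane anchor of complex II, lay lower at 48 h on every RHOXF2 array in both clusters, with a difference of -0.24 in the brighter (adjusted p = 0.172; -0.26 without replicate 3 at 48 h).

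The median of complex IV over time was 0.00060 in RHOXF1 cells, 0.00080 in RHOXF2 cells and 0.020 in control cells, beside -0.070, -0.090 and -0.10 for complex I and -0.046, -0.081 and -0.083 for ATP synthase in those cells. These medians were not tested against each other. The median of all clusters was -0.0052 in RHOXF1 cells, 0.014 in RHOXF2 cells and -0.029 in control cells. Over all subunits the control median was -0.057, but 0.00020 without control replicate 3 at 24 h and -0.10 without control replicate 1 at 48 h. In RHOXF2 cells it was -0.054, and -0.11 without replicate 3 at 48 h.

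Within complex IV, COX7A2 read higher at 48 h in RHOXF1 cells (0.32, limma adjusted p = 0.109), with 10.74, 10.74 and 10.69 at 48 h and 10.35, 10.67 and 10.19 at 24 h, without overlap. COX6C differed by 0.26 in RHOXF1 cells (adjusted p = 0.154) and 0.28 in control cells (adjusted p = 0.0679), but by 0.05 in RHOXF2 cells. COX8C differed by 0.36 in control cells (adjusted p = 0.0731), whereas COX6A2 differed by -0.26 there (adjusted p = 0.0502). Both passed under some alternatives: COX8C with repeated quantile normalization (0.0329), cyclic loess (0.0406) and array weights (0.0317), and COX6A2 with repeated quantile normalization (0.0129), cyclic loess (0.0270) and the replicate block (0.0264). COX8C also passed without control replicate 1 of 24 h (0.0390) or of 48 h (0.00482), and COX6A2 without control replicate 3 of 24 h (0.0471). In control cells COX6C passed without control replicate 1 of 48 h (0.0443). In the reported model no gene of complexes II and III passed over time in any vector. Under some alternatives UQCRB of complex III passed in RHOXF2 cells. These were array weights (limma adjusted p = 0.034), the replicate block (0.0254) and leaving out RHOXF2 replicate 3 at 48 h (0.0407). Among core subunits, SDHA, which carries the succinate-oxidising flavin, differed by 0.11 in RHOXF1 cells, 0.18 in RHOXF2 cells and 0.14 in control cells.

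The proximal promoters of the 5 subunits called in control cells are shown because 4 of them fell together and 1 rose. Each is the RefSeq window of 300 bases, 250 before the start of the gene and 50 after it, on GRCh38.p14, in lower case. Capitals mark matches, on either strand, to motifs of factors known to act on respiratory genes: GCGCA and GCGC with any 1 base between them for NRF1, CCGGAAG for the ETS factors such as GABPA, and AAGATGGC for YY1. NDUFA8 lies on chr9:122159730-122160029 (minus strand), NDUFA9 on chr12:4648864-4649163 (plus), NDUFS3 on chr11:47578824-47579123 (plus), NDUFB2 on chr7:140696458-140696757 (plus) and NDUFV1 on chr11:67606686-67606985 (plus).
NDUFA8: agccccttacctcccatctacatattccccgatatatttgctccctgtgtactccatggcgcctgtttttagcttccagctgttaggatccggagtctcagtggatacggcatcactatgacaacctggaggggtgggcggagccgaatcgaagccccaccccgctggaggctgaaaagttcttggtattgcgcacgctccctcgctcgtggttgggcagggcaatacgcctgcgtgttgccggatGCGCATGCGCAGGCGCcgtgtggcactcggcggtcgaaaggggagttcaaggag
NDUFA9: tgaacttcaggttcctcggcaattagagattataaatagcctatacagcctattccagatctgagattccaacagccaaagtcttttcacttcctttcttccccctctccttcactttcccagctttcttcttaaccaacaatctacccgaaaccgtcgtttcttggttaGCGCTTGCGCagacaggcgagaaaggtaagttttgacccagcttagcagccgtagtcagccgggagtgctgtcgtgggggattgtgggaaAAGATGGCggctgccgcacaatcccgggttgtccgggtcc
NDUFS3: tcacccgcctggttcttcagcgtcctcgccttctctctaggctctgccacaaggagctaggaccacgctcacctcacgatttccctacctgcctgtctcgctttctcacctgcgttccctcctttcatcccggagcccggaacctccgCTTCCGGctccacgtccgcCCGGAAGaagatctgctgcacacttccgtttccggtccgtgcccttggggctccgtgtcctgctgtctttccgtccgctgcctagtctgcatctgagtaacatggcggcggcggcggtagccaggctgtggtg
NDUFB2: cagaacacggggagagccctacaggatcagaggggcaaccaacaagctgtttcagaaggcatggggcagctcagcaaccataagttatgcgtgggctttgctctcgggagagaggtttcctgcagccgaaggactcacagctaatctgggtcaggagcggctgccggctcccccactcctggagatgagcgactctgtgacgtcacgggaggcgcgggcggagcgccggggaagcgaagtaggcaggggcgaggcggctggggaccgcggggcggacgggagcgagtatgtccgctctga
NDUFV1: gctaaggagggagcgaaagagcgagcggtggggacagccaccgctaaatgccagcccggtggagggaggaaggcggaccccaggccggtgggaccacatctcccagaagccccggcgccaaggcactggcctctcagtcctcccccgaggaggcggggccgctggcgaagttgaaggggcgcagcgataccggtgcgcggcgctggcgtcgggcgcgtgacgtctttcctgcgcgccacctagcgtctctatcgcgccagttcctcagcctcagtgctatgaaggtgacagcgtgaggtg

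NDUFA8 holds 2 overlapping NRF1 matches in the capital run near the start site, NDUFA9 an NRF1 and a YY1 match, and NDUFS3 a pair of ETS matches on opposite strands. NDUFB2 and NDUFV1 hold none of the 3 motifs in these windows. Of the 77 subunit genes 63 had a window. Among them 16 (25.4%) held the NRF1 motif, 19 (30.2%) the ETS motif and 11 (17.5%) the YY1 motif, and 38 (60.3%) any of the 3. Of all 27305 genes with a window these shares were 6.98%, 12.2%, 3.52% and 20%. That background holds genes of any level, whereas the subunit clusters were mostly bright, and no share matched for level was taken. The ETS motif ends with the letters that open the YY1 motif, so a single stretch can count for both. These are matches of letters, not measured binding.

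The transcripts of NRF1, GABPA and YY1 did not pass in control cells over time: NRF1 differed by -0.15 (limma adjusted p = 0.298), GABPA by 0.06 (0.693) and YY1 by -0.14 (0.144). Other ETS factors are not given here, and transcript levels do not measure binding or activity. Whether any of these factors had a part in the changes was not tested. Genes around the pathway were read from 4 lists. Of 18 transcriptional regulators measured, TFB1M, a ribosomal RNA methyltransferase of mitochondria, rose (0.29), and TFAM, which packages mitochondrial DNA (-0.39), its partner in transcription TFB2M (-0.49) and MTERF3 (-0.38), a repressor of mitochondrial transcription, fell. Together they are 22.2% of that list, against 17.8% of all clusters. That count of 4 was 2 without control replicate 2 of 24 h, 0 without replicate 3 of 24 h or replicate 2 of 48 h, and 1 with only the control arrays fitted.

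Assembly factors, which build the complexes but are not part of them, had 9 of 46 measured genes called in control cells (19.6%, against 17.8% of all clusters), 3 higher and 6 lower. The largest rise was that of SDHAF4, an assembly factor of complex II (1.08 ± 0.19, limma adjusted p = 0.00144). SDHAF4 read 6.85 ± 0.19 at 48 h and 5.77 ± 0.35 at 24 h (SD, n = 3). TTC19 (0.32) of complex III and COA8 (0.33) of complex IV also rose. The complex I factors NDUFAF4 (-0.63), NDUFAF1 (-0.47) and NDUFAF5 (-0.42) fell, as did COA7 (-0.69) and COA3 (-0.46) of complex IV and TMEM70 (-0.37), which serves complex I and ATP synthase. The 9 became 5 without control replicate 2 of 24 h or of 48 h, 4 with only the control arrays fitted and 5 among clusters above the median level.

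Of 15 enzymes of the Krebs cycle and pyruvate dehydrogenase, 7 were called in control cells (46.7%, against 17.8% of all clusters). IDH2, the NADP-linked isocitrate dehydrogenase, rose by 0.91 ± 0.16 (limma adjusted p = 0.00135), and SUCLG2 by 0.36. The NAD-linked isocitrate dehydrogenase subunits IDH3A (-0.44) and IDH3B (-0.27) fell, and so did DLAT (-0.41), PDHB (-0.38) and PDHA1 (-0.31) of pyruvate dehydrogenase. The 7 became 4 without control replicate 2 and 3 without replicate 3 of 24 h, 2 without replicate 2 and 4 without replicate 3 of 48 h, and 2 with only the control arrays fitted. In RHOXF1 cells IDH2 (0.82) rose and DLAT (-0.35) fell (13.3% of the 15, against 4.42% of all clusters). In RHOXF2 cells 0 of the 15 were called (against 1.24% of all clusters). Without RHOXF2 replicate 3 at 48 h 3 were called, beside 801 of all 21214 clusters. The 2 in RHOXF1 cells became 0 without RHOXF1 replicate 2 or 3 of 24 h or replicate 3 of 48 h, and 1 without any other single RHOXF1 array. Electron carriers and subunits outside the name pattern had 2 of 6 called in control cells (33.3%, against 17.8% of all clusters). They were cytochrome c (CYCS, -0.36) and the acyl carrier NDUFAB1 (-0.29), and the count was 0 to 2 when single control arrays were left out. None of these 4 lists had a gene called against control with RHOXF1 or RHOXF2 at either time.

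**Figure D4:**
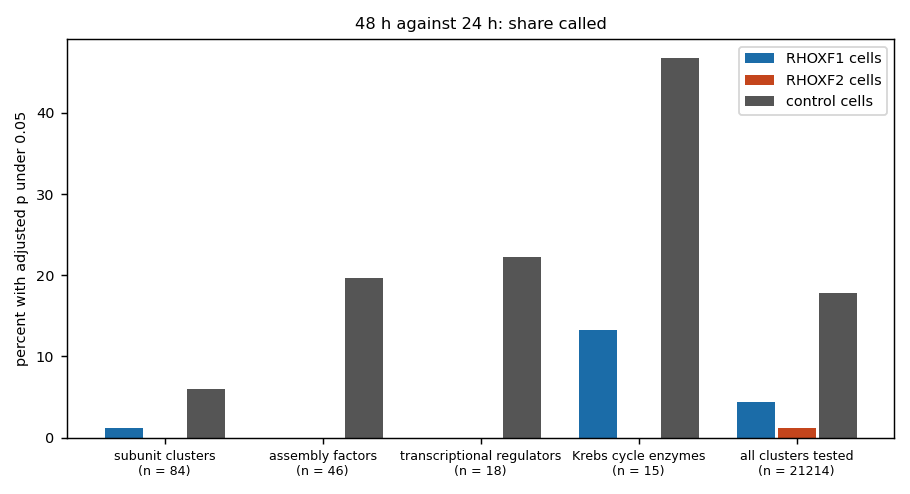
Share of clusters (percent, y axis, from 0) with an adjusted p under 0.05 in 48 h against 24 h for the subunit clusters, 3 lists of related genes and all clusters tested on the x axis, with 1 bar per vector. In control cells the subunits reached 5.95%, against 19.6% of assembly factors, 22.2% of regulators, 46.7% of Krebs cycle enzymes and 17.8% of all clusters.

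Replicate arrays differed far more in a few subunits than in the other subunits. The median residual SD within groups was 0.126 for the subunit clusters and 0.127 for all clusters, but COX8A (0.447), NDUFA3 (0.423), ATP5F1D (0.415), COX5B (0.352), COX6B1 (0.337) and NDUFS8 (0.303) exceeded 0.3; they were singled out after their values were seen. Over all clusters the largest residual SD was 1.40, and the share of all clusters above 0.3 was not counted. COX8A, COX5B and COX6B1 are common subunits of complex IV, NDUFA3 and NDUFS8 belong to complex I, where NDUFS8 carries iron-sulfur clusters, and ATP5F1D is the delta subunit of the ATP synthase stalk. COX8A read 11.73, 11.02 and 10.22 in control cells at 48 h and 11.23, 10.32 and 11.14 at 24 h.

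These 6 subunits, of 3 complexes, shared their lowest array in each group. In control cells at 48 h replicate 1 was the highest and replicate 3 the lowest array for all 6, with ranges of 0.731 to 1.51. In each of the 6 groups 1 array was the lowest for all 6 subunits. At 48 h it was RHOXF1 replicate 1, RHOXF2 replicate 1 and control replicate 3, and at 24 h RHOXF1 replicate 2, RHOXF2 replicate 3 and control replicate 2. The ranges were smallest in RHOXF1 cells at 48 h, from 0.0869 to 0.478, where the median range of all subunit clusters was 0.1625. COX8A read 0.41 above control with RHOXF2 at 24 h, the largest difference of any member there, with a limma adjusted p of 0.795. The subunit next in spread, NDUFS6 (residual SD 0.292), shared none of these lowest arrays. In control cells at 48 h it was lowest in replicate 1 (8.94, against 9.39 in replicate 3). UQCRB (0.236) was also lowest in replicate 1 there (7.18), whereas NDUFB3 (0.224) was lowest in replicate 3 (6.87). What the shared lowest arrays come from, and whether clusters outside the subunits share them, was not tested.

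**Figure D5:**
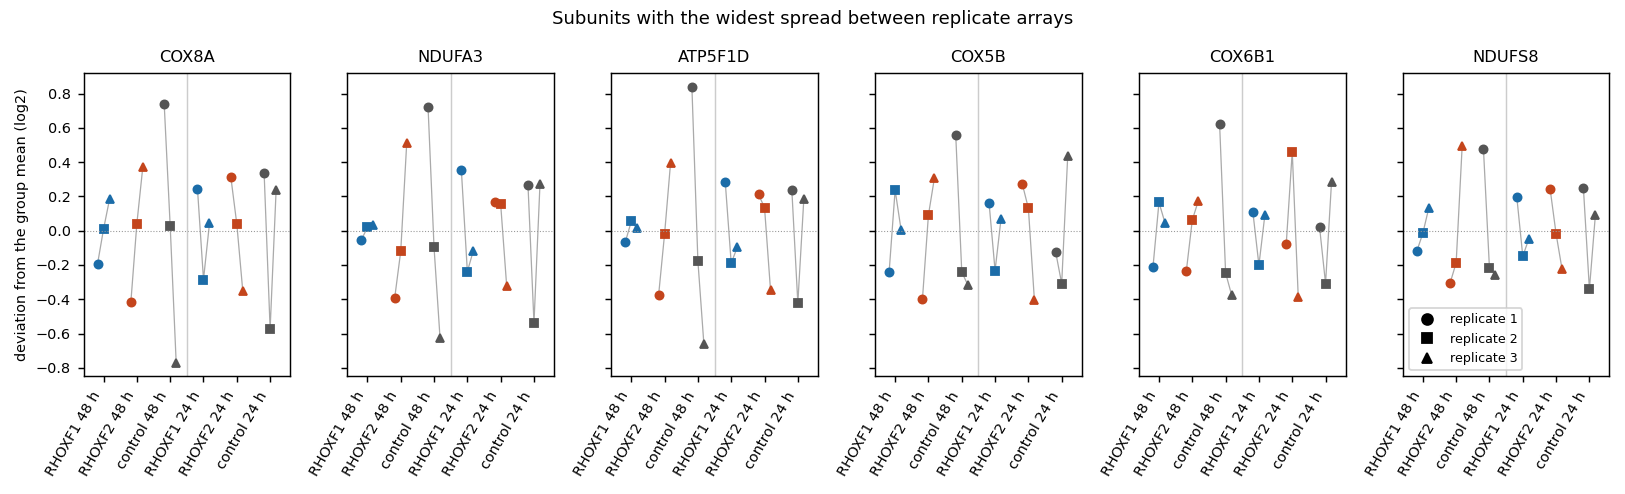
Deviation of each array from its group mean (log2, y axis) for the 6 subunits with the widest spread, in the 6 groups on the x axis; symbols mark replicates 1, 2 and 3. In each group the same array is the lowest for all 6 subunits.

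Genes measured by 2 clusters show how far probes of 1 gene agree. The NDUFB4 clusters held identical values on all 18 arrays, so this gene counts 2 times among the 84. Across the 18 arrays the clusters of COX6A1 (r = 0.994) and NDUFV2 (0.933) ran together, those of SDHD (0.779) and ATP5MK (0.649) less so, and those of NDUFS4 (0.374) and SDHC (0.285) least. Clusters that list further genes beside a subunit are no members; of these the one shared by NDUFC2 and its readthrough NDUFC2-KCTD14 fell by 0.33 in control cells over time (limma adjusted p = 0.0298).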

How the data were processed

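Per the submitters' processing notes, the deposited values are log2 expression levels made with Affymetrix Expression Console 3.1 by RMA (background correction, quantile normalization and summary per transcript cluster); the scale was checked on the values. The genome build is not given in the sources used here. RNA had an integrity number above 7, per the labels. Symbols came from the platform annotation supplied with the table. The members and gene lists, and the rule naming genes (members past the threshold, those with the smallest p per complex and direction, core subunits and isoform pairs), were chosen with earlier results of these data known.

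From these values, limma 3.58.1 in R 4.3.3 (lmFit, eBayes) fitted 1 mean per group over 18 arrays (12 residual degrees of freedom) to 21214 named clusters without a filter, in 11 comparisons. Tests were two-sided, adjusted by Benjamini-Hochberg at 0.05 over all clusters of a comparison; no p was adjusted over the members alone. ± is limma's SE unless SD is named. The fit was tested on simulated data. Same-numbered RHOXF1 and control arrays at 24 h deviated together in all 3 pairs (r 0.328 to 0.452), as did RHOXF2 and control arrays (0.134 to 0.504). Between RHOXF1 and RHOXF2 at 24 h r was 0.0617 for replicate 2. This is a check of the data, not the labels. The replicate numbers at 24 h also follow the array numbers, so paired samples and array order cannot be told apart. The values reported come from the model without a block. The number of arrays limits the precision. Alternatives were repeated quantile normalization, cyclic loess, a filter on dim clusters, only the groups compared, a trended robust prior, array weights, a replicate block and leaving out each array.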

Additional observations from a re-analysis of the deposited data

How the results depend on the processing

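No called subunit changed direction under any alternative run; the medians near 0 that changed sign are given with their arrays above. In comparisons with control, between the RHOX vectors and between the effects at both times, every alternative called 0 subunits, except that leaving out arrays gave 0 to 1 for RHOXF2 against control at 48 h. Over time, the count in RHOXF2 cells was 0, but 1 with cyclic loess, 1 among clusters above the median level, 2 with array weights and 2 with the replicate block, and 0 to 2 over omitted arrays. In RHOXF1 cells it was 1, and 3 with array weights, 0 to 1 over omitted arrays. In control cells it was 5, and 7 with repeated quantile normalization, 7 with cyclic loess, 2 with only the arrays of the groups compared, 5 with array weights (NDUFV1 lost, COX8C gained) and 2 to 8 over omitted arrays. The causes were not tested, beyond fewer arrays in the fits that leave some out.

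The replicate block was set within each time for comparisons of vectors and across the times for 48 h against 24 h. Over time it called 6 subunits in control cells, 1 in RHOXF1 cells and 2 in RHOXF2 cells (UQCRB, limma adjusted p = 0.0254, and ATP5MGL, 0.0404). In the other comparisons it called 0, so it changed no call against control at 24 h, where same-numbered arrays deviated together. Elsewhere they mostly did not. At 48 h r passed 0.1 in 2 of 9 same-numbered pairs, with the own number best for 2 of 9 arrays. Between the times of a vector it did so in 1 of 9. Over all clusters, counts moved over 1.5 times in control cells (1595 with only the groups compared and 2073 to 4077 over omitted arrays, against 3772), RHOXF1 cells (2907 with array weights, 1802 with only the groups compared, 13 to 722 over omitted RHOXF1 arrays, against 937) and RHOXF2 cells (848 with array weights, 438 with the block, 157 with cyclic loess, 109 with repeated quantile normalization, 10 with only the groups compared and 4 to 801 over omitted arrays, against 264) and for RHOXF2 against control at 48 h (4 with only the groups compared, 13 among clusters above the median level and 15 to 125 over omitted arrays, against 20). RHOXF1 against control at 48 h ran from 1 to 5 (against 2), RHOXF2 against control at 24 h reached 7 (against 2), RHOXF1 against RHOXF2 fell to 4 at 48 h (against 11) and reached 5 at 24 h (against 3), and the RHOXF2 difference between times fell to 0 (against 3). The 3 arrays per group limit the precision.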
